A study of Mus musculus with 16 samples.

Results

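The genes described here are those of the cardiac natriuretic peptide system: the peptides Nppa, Nppb and Nppc, the receptors Npr1, Npr2 and Npr3, and the proteases Corin and Furin. They were found by gene symbol in the platform annotation, which gives 10 probe sets for these 8 genes, of 45141 probe sets and 17097 genes on the array. Npr3 has 3 probe sets and each of the other genes has 1. Ventricular cardiomyocyte RNA was hybridised to Affymetrix MG-430 PM arrays, each array holding 1 mouse. Each sex had 4 GPER KO and 4 intact mice, and the labels call the intact mice wild type. GPER KO mice carry a deletion of the gene of the G protein-coupled estrogen receptor (Gper1) in cardiomyocytes. All mice were 15 weeks old per the labels, while the methods of the study give a somewhat older age. The deletion is described as specific to cardiomyocytes, and the promoter that drives it is not given in the sources used here. Cells were freed from the ventricles by collagenase, passed through a mesh and pelleted gently, with no sort, so other cells of the heart can be present. The purpose of the arrays was to compare gene expression between GPER KO and intact cardiomyocytes in each sex.

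Atrial natriuretic peptide (ANP, from Nppa) and B-type natriuretic peptide (BNP, from Nppb) are hormones that the heart secretes when its wall is stretched. They lower blood volume and pressure through the kidney and the vessels. In the adult heart Nppa is mainly an atrial gene, and both genes are well known for being switched on again in the ventricle under load, as part of the fetal gene program. C-type natriuretic peptide (from Nppc) is made chiefly by endothelial cells and acts nearby. Npr1 and Npr2 are receptors whose inner part makes the second messenger cGMP, with ANP and BNP acting on Npr1 and C-type peptide on Npr2. Npr3 binds all of these peptides and clears them. Corin, a protease on the surface of cardiomyocytes, cuts the ANP precursor, and Furin, a protease of the secretory pathway, cuts the precursors of BNP and C-type peptide.

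Nppa and Nppb lie next to each other on mouse chromosome 4, in the same orientation and with no other protein-coding gene of the RefSeq table between them. Non-coding genes were not looked at. The 250 bases before the RefSeq start of each gene (assembly GRCm38.p6, plus strand) are printed because these 2 genes were the members that differed between genotypes, and both were higher in GPER KO cells. The windows are chr4:148000472-148000721 for Nppa and chr4:147985650-147985899 for Nppb. Capitals mark the letters GATAA (the core bound by GATA factors), AAGTG (a core bound by NKX2 factors), GGAATG (a core bound by TEAD factors) and TATAAA (the letters of a TATA box).
Nppa: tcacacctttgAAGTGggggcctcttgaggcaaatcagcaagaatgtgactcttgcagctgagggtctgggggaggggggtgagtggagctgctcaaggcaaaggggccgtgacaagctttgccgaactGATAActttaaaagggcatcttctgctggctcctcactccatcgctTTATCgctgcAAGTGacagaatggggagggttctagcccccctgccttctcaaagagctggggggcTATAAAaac
Nppb: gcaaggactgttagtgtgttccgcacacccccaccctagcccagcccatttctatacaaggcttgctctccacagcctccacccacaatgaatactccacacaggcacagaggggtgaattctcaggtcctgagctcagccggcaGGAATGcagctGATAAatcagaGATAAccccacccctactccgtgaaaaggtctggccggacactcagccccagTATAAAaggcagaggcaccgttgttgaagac
The Nppa window holds GATAA once on the gene's strand and once, written TTATC, on the opposite strand, and AAGTG at 2 places. The Nppb window holds GATAA at 2 places and GGAATG at 1 place. TATAAA stands at positions -9 to -4 from the RefSeq start of Nppa and at -31 to -26 from that of Nppb. Among 32851 RefSeq windows of the same length, GATAA was found in 22.6%, AAGTG in 40.7% and GGAATG in 12.6% when both strands were searched, and TATAAA in 7.6% on the gene's strand. The AP-1 letters TGANTCA, found in 6.7% of windows, were in neither window. The exact CArG box letters CCWWWWWWGG (W is A or T), bound by serum response factor and found in 1.5%, were also in neither. CArG-like stretches that depart from these letters were not searched for, so a site for that factor is not excluded. The searched letters did not overlap one another in these windows. A match is a description of the letters and says nothing of binding in these cells. All 8 genes have such a window, Furin has 2, and GATAA and GGAATG were in none of the windows of the other 6 genes. AAGTG was also found at 4 places in 1 Furin window, and TATAAA in the Nppc window and that Furin window.

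Values are log2 values after robust multi-array average (RMA), and differences are GPER KO minus intact. A gene is called at an adjusted p under 0.05 in limma's test over all 17097 genes. Nppa and Nppb had very high signals, at percentiles 99.2 and 99.3 of all probe sets by their mean over all arrays. Corin followed at percentile 98.2, Npr2 at 90.2 and Furin at 89.2. The 3 Npr3 probe sets stood at percentiles 41.2, 37.7 and 30.4, Npr1 at 37.1 and Nppc at 26.7. The means of these low probe sets lie under the array medians of 3.47 to 3.51, and whether they exceed background was not assessed. Probe sets differ in how strongly they bind, so this order describes signals and not amounts of RNA. A filter that kept genes above percentile 40 in 4 or more arrays kept 7 of the 8 genes and left out Nppc.

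Nppa RNA was higher in GPER KO cardiomyocytes of both sexes, 2.26-fold in females and 2.65-fold in males. In females the 4 GPER KO mice had log2 values of 10.89, 11.03, 11.59 and 11.39, against 9.63, 10.52, 10.33 and 9.69 in the 4 intact mice. Every GPER KO female was above every intact female, and the intact females formed a lower pair (418 and 425) and a higher pair (421 and 422). The means were 11.22 ± 0.32 in GPER KO and 10.04 ± 0.45 in intact females (SD, n = 4 each), a log2 difference of 1.18 (standard error 0.24, limma adjusted p = 0.0480). The GPER KO mice among males had 11.46, 11.37, 11.34 and 11.19, against 10.62, 9.62, 9.48 and 10.01 in the intact mice. The male GPER KO values lay close together and all above the more widely spread intact values. Their means were 11.34 ± 0.11 in GPER KO and 9.93 ± 0.51 in intact males (SD, n = 4 each), a log2 difference of 1.41 (standard error 0.24, adjusted p = 0.00903). The lowest of the 8 GPER KO arrays, 10.89, exceeded the highest of the 8 intact arrays, 10.62.

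Nppb RNA was also higher in GPER KO cells, 1.76-fold in females and 2.0-fold in males, and passed the test across all genes in males and over both sexes together but not in females alone. The GPER KO females had log2 values of 11.61, 11.37, 10.83 and 10.93, against 10.34, 10.05, 10.74 and 10.33 in the intact females. The groups did not overlap, although GPER KO female 426 stood only just above intact female 422. The means were 11.18 ± 0.37 in GPER KO and 10.37 ± 0.29 in intact females (SD, n = 4 each), with a log2 difference of 0.82 (standard error 0.20, adjusted p = 0.135). The GPER KO males had 11.07, 10.92, 11.51 and 11.65, against 10.31, 9.86, 10.59 and 10.38 in the intact males. Again every GPER KO male was above every intact male. The means were 11.28 ± 0.35 in GPER KO and 10.28 ± 0.31 in intact males (SD, n = 4 each), with a log2 difference of 1.0 (standard error 0.20, adjusted p = 0.0323).

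**Figure D1:**
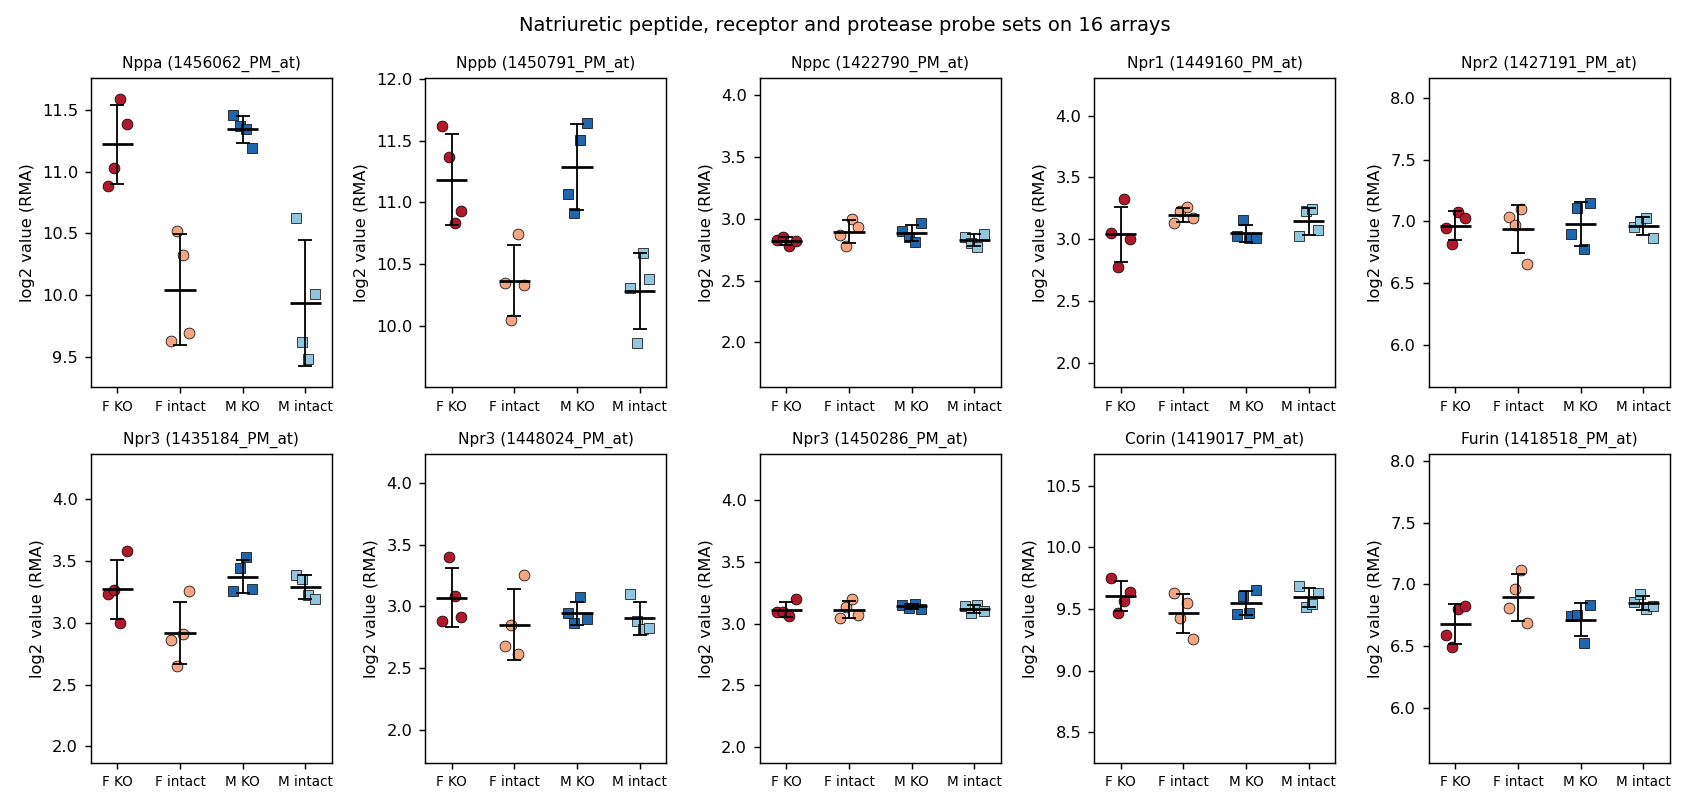
Log2 value (RMA) of each of the 10 probe sets on every array, with GPER KO to the left of intact in each sex; points are mice, and the bar and whisker are the mean and SD of 4 mice. For Nppa and Nppb all 8 GPER KO points lie above all 8 intact points, while the other 8 probe sets overlap between genotypes in both sexes.

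Averaged over both sexes, the log2 difference of Nppa was 1.29 (standard error 0.17, adjusted p = 0.000577), which is 2.45-fold, and that of Nppb was 0.91 (standard error 0.14, adjusted p = 0.00304), which is 1.88-fold. By size of the difference Nppa ranked 5 and Nppb ranked 16 among 17097 genes in this average. Nppa ranked 9 in females and 7 in males, and Nppb ranked 49 in females and 20 in males. In an exact two-sided permutation test of 4 arrays against 4, each gene gave p = 0.0286 in each sex, the smallest value this design allows. With genotype permuted within each sex, the exact p over both sexes was 0.000408 for Nppa and for Nppb, again the smallest possible. These are among 30 exact tests on the 10 probe sets. Whether animals shared a litter, a cage or a day of cell isolation is not given in the sources used here, so the p-values measure the spread between these mice as they were sampled.

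Of the 8 genes, limma called 1 in females (Nppa), 2 in males (Nppa and Nppb) and the same 2 in the average of the sexes, all higher in GPER KO. Among all genes 0.281% were called in females, 0.62% in males and 1.36% in the average. The share called higher was 0.123% in females, 0.509% in males and 0.825% in the average. A GPER KO group wholly above its intact group was seen for 1.95% of all genes in females, 4.24% in males and 0.38% in both sexes at once. When every probe set was tested on its own over 45141 probe sets, the Nppa call stood in males (adjusted p = 0.0150) and in the average (adjusted p = 0.000955) but not in females (adjusted p = 0.0712). Nppb then passed in the average only (adjusted p = 0.00498), with 0.0536 in males and 0.173 in females. At that level 0.122% of probe sets were called in females, 0.29% in males and 0.817% in the average.

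The female Nppa call is close to the threshold. It was kept in 3 of the 16 fits that leave out 1 array, whose log2 differences ran from 1.04 without intact female 418 to 1.34 without intact female 421, with adjusted p of 0.0183 to 0.156. The male Nppb call was kept in 10 of 16 such fits, and its weakest value was a log2 difference of 0.86 (adjusted p = 0.113) without intact male 433. The male Nppa call was kept in all 16. Both calls in the average of the sexes were kept in all 16, with log2 differences of 1.22 to 1.41 for Nppa and 0.84 to 0.97 for Nppb.

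The genotype effect was not shown to differ between the sexes. The male effect minus the female effect was 0.23 on the log2 scale for Nppa (95% interval -0.48 to 0.93, adjusted p = 0.827) and 0.18 for Nppb (95% interval -0.43 to 0.79, adjusted p = 0.847). These intervals allow a sizeable difference in either direction. No gene on the array was called for this difference by limma (0% of 17097), 1875 genes and 0 of the 8 had an unadjusted p under 0.05, and the absence of a call for the 8 genes is no feature of theirs. Among intact mice, Nppa was 9.93 in males and 10.04 in females, a log2 difference (male minus female) of -0.11 (adjusted p = 0.850), and Nppb was 10.28 in males and 10.37 in females, a difference of -0.08 (adjusted p = 0.872). None of the 8 genes was called between intact males and females, where 0.579% of all genes were. There 1 of the 8, Npr3, had an unadjusted p under 0.05, as did 17.5% of all genes, so this count does not stand out.

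**Figure D2:**
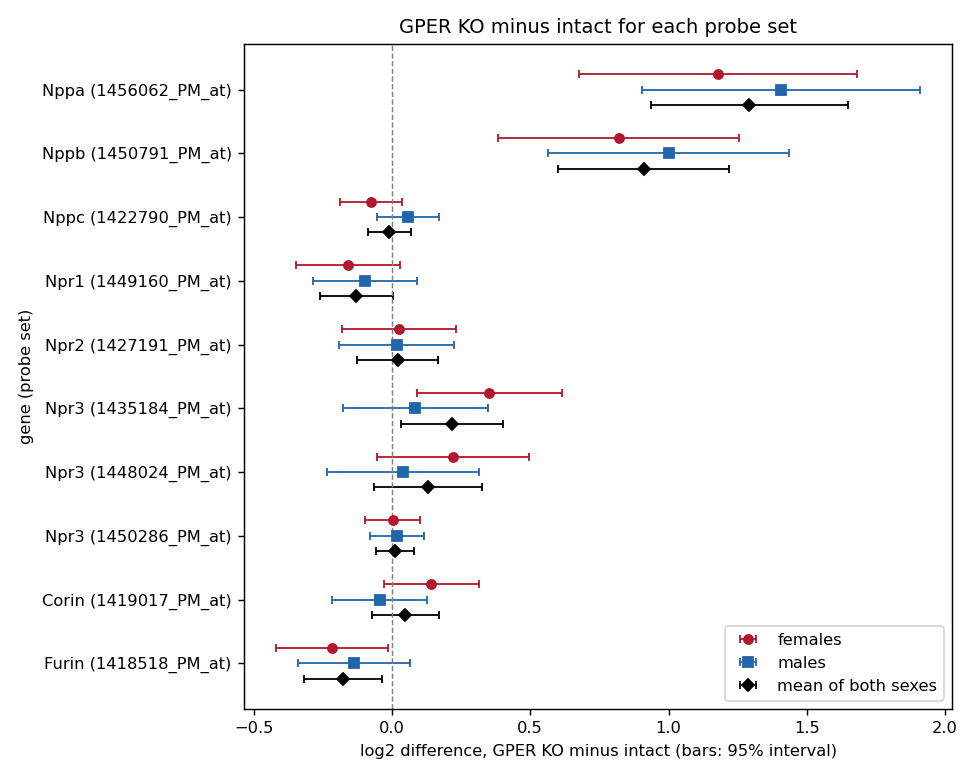
Log2 difference, GPER KO minus intact, of each of the 10 probe sets in females, in males and in the average of both sexes; points are limma estimates over all probe sets and whiskers their 95% intervals. The estimates of Nppa (1.18 in females, 1.41 in males) and Nppb (0.82 in females, 1.0 in males) stand apart from those of the other 6 genes, of which Npr3 in females (0.35) lies farthest from 0.

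Mice of 1 group differed more in these 2 peptides than in most genes. The SD within groups was 0.38 for Nppa and 0.33 for Nppb, at percentiles 98.1 and 96.9 of all genes, against a median of 0.111. All genes here include those of low signal, and genes of like signal were not compared. Within GPER KO mice the peptides did not follow each other. Among GPER KO females, 426 had the highest Nppa and the lowest Nppb of its group, and 417 had the lowest Nppa and the highest Nppb. Among GPER KO males, 451 had the lowest Nppa and the highest Nppb. As a description over the 16 arrays, the distance between the Nppa and Nppb profiles, each scaled to mean 0 and SD 1, was 0.768, where 0 means identical profiles and 1.37 is the distance of profiles that are not correlated. Once the 4 group means were taken away the distance was 1.56, farther than profiles that are not correlated.

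**Figure D3:**
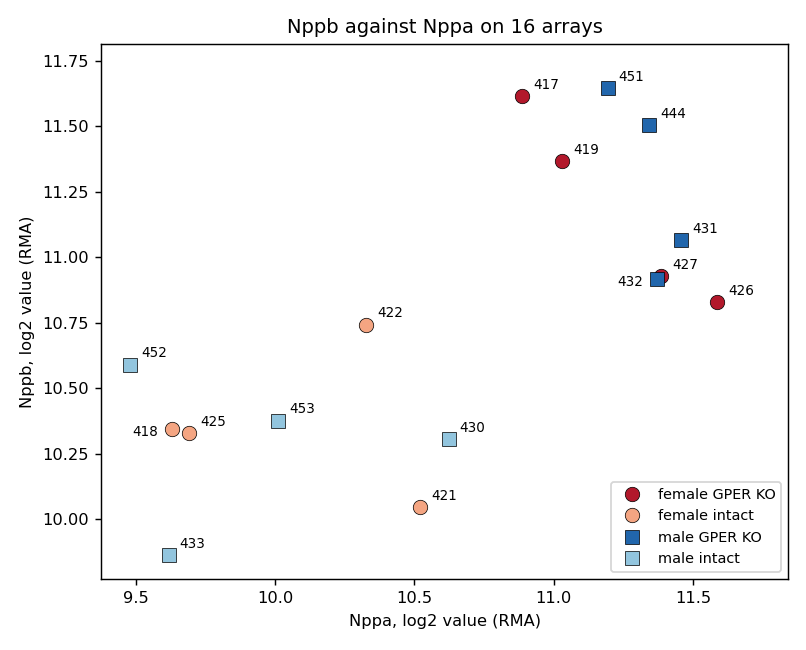
Nppb against Nppa, both as log2 values (RMA), with 1 point per array and the animal number beside it; circles are females, squares are males, and dark colours are GPER KO. The 8 GPER KO arrays take the upper right and the 8 intact arrays the lower left, and in each sex the GPER KO mouse with the lowest Nppa (417, 451) has the highest Nppb.

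Nppc, the endothelial peptide, stayed at the bottom of the signal range, with 2.78 to 3.0 over all arrays. Its log2 difference was -0.08 in females (95% interval -0.19 to 0.04) and 0.06 in males (95% interval -0.06 to 0.17), and neither was called.

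None of the receptors was called by limma in any comparison. Npr3 had an unadjusted p under 0.05 in females and in the average, as did 12.6% and 11.7% of all genes. It also had one between intact males and females. Npr1, the cGMP-making receptor of ANP and BNP, averaged 3.04 ± 0.22 in GPER KO and 3.20 ± 0.06 in intact females, and 3.05 ± 0.07 in GPER KO and 3.15 ± 0.11 in intact males (SD, n = 4 each). Its log2 difference was -0.16 in females (female adjusted p = 0.480) and -0.10 in males (male adjusted p = 0.794), at a signal where a change may not be visible. Npr2, the cGMP-making receptor of C-type peptide, was measured at a much higher signal, between 6.66 and 7.15 on all arrays. Its mean was 6.96 in GPER KO and 6.94 in intact females, and 6.98 in GPER KO and 6.96 in intact males. The log2 difference was 0.02 in each sex, with a 95% interval of -0.18 to 0.23 in females and -0.19 to 0.22 in males.

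Npr3, the clearance receptor, had the third largest difference among the 8 genes in females and did not pass the test. Its strongest probe set read 3.24, 3.26, 3.0 and 3.58 in GPER KO females, against 2.86, 2.65, 2.91 and 3.26 in intact females. Only intact female 425 reached into the GPER KO range. In males it read 3.26, 3.44, 3.53 and 3.27 in GPER KO mice, against 3.39, 3.35, 3.22 and 3.19 in intact mice, and the groups overlapped widely. The log2 difference was 0.35 in females (standard error 0.12, adjusted p = 0.259) and 0.08 in males (adjusted p = 0.888). Of the other probe sets, that at percentile 30.4 differed by 0.22 in females and 0.04 in males, and that at percentile 37.7 by 0.0021 in females and 0.02 in males, so the probe sets of this gene did not give 1 answer. The exact permutation p over both sexes was 0.0424 for the strongest probe set, 1 of the 30 tests, and the gene was not called after adjustment over all genes. Npr3 is known as a gene of the endocardium. All 8 endocardial markers had lower means in GPER KO females, and 6 of 8 had higher means in GPER KO males. Of these markers 0 were called in either sex and 0 had an unadjusted p under 0.05. The part of endocardial cells in the Npr3 values was not tested. Npr3 also had the largest sex difference of the 8 genes among intact mice, with 3.29 in males and 2.92 in females, a log2 difference (male minus female) of 0.37 (standard error 0.12, adjusted p = 0.148). Without intact female 425 that difference was 0.48 and was called (adjusted p = 0.0432). It was called in only 1 of the 16 fits that leave out 1 array. In that fit 375 genes were called between intact males and females, against 99 with all arrays. The Npr3 probe set at percentile 30.4 differed by 0.055 between intact males and females, and that at percentile 37.7 by 0.0092. The sex difference of this gene thus rests on 1 of its 3 probe sets.

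The processing proteases were not called by limma in any comparison. Furin had an unadjusted p under 0.05 in females and in the average, as did 12.6% and 11.7% of all genes. Furin, which cuts the BNP precursor, read 6.59, 6.49, 6.80 and 6.83 in GPER KO females, against 6.81, 6.96, 7.12 and 6.69 in intact females. In males it read 6.74, 6.75, 6.53 and 6.84 in GPER KO mice, against 6.86, 6.93, 6.80 and 6.83 in intact mice. The groups overlapped in both sexes while each GPER KO mean was the lower, with log2 differences of -0.22 in females (adjusted p = 0.366), -0.14 in males (adjusted p = 0.700) and -0.18 in the average (standard error 0.07, adjusted p = 0.279). The exact permutation p for Furin over both sexes was 0.0245, 1 of the 30 tests. Corin, which cuts the ANP precursor, ranged from 9.26 to 9.75 over all arrays, and differed by 0.14 in females (95% interval -0.03 to 0.31) and -0.05 in males (95% interval -0.22 to 0.13).

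Genes that act after the peptides are made were compared in 4 lists. Of the list of peptide breakdown, protease activation and receptor ligand, 5 of 6 genes were measured, and only Pam was called. Pam, an amidating enzyme abundant in the membranes of atrial secretory granules, had a log2 difference of 0.36 in females, which was not called (adjusted p = 0.159), and was higher by 0.49 in males (adjusted p = 0.0255) and by 0.43 in the average (standard error 0.07, adjusted p = 0.00295). Mme (neprilysin), which degrades natriuretic peptides, had log2 differences of -0.15 in females and -0.18 in males (adjusted p = 0.391 and 0.334). No gene was called among the 3 measured subunits of soluble guanylate cyclase, the 10 measured cGMP phosphodiesterases or the 10 genes of cGMP-dependent kinases and their targets. At an unadjusted p under 0.05 these lists held 0, 1 and 3 genes in females, and 0, 1 and 2 in males, where 12.6% of all genes lay under it in females and 10.1% in males. Their median log2 differences in females were 0.01, 0.00 and -0.01, and in males -0.14, 0.03 and -0.04, against medians over all genes of -0.02 in females and 0.01 in males. The value farthest from 0 among them was Pde1c, a phosphodiesterase of cGMP and cAMP, at 0.83 in females (adjusted p = 0.108). Ppp1r12a, the targeting subunit of myosin phosphatase, was at 0.52 in females (adjusted p = 0.369), and Prkg1, the main cGMP-dependent kinase of the heart, at -0.39 in males (adjusted p = 0.355). Mybpc3, a sarcomere protein phosphorylated by such kinases, differed by 0.18 in females (female adjusted p = 0.304) and 0.17 in males (male adjusted p = 0.384).

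Genes known to regulate Nppa and Nppb were also compared, and 25 of 28 were measured. The only call was Tbx5, a T-box factor that activates Nppa, which was lower in GPER KO females by a log2 difference of -0.33 (standard error 0.06, adjusted p = 0.0382). Tbx5 was not called in the average (log2 difference -0.15, adjusted p = 0.121), and among intact mice it was lower in males than in females (male minus female -0.34, adjusted p = 0.0356). At an unadjusted p under 0.05 the list held 8 of 25 genes in females and 2 of 25 in males. Among all genes 12.6% lay under it in females and 10.1% in males. In males none of the 25 was called, and the lowest unadjusted p-values belonged to Mef2c, a MADS-box factor, at -0.31 (adjusted p = 0.438) and Srf, serum response factor, at 0.18 (adjusted p = 0.476). The list's median was -0.06 in females and -0.01 in males.

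No measured neighbour of Nppa and Nppb on chromosome 4 was called. In order the protein-coding genes run Plod1, 2510039O18Rik, Nppb, Nppa and Clcn6. 2510039O18Rik, on the Nppb side, differed by 0.02 in females (female adjusted p = 0.973) and 0.29 in males (male adjusted p = 0.569). Clcn6, a chloride and proton exchanger gene on the Nppa side, differed by -0.03 in females and 0.05 in males (adjusted p = 0.911 and 0.898). None of the 9 measured genes of the 11 in the neighbour list was called by limma in either sex. At an unadjusted p under 0.05 there were 0 in females and 1 in males, against 12.6% and 10.1% of all genes. Their median difference was -0.04 in females and 0.10 in males.

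Of 17 measured genes of the fetal and stress program other than the natriuretic peptides, of 20 listed, Ankrd1 was called in both sexes. Ankrd1, a cardiac ankyrin repeat protein, was higher by 1.15 in females (standard error 0.13, adjusted p = 0.000393) and by 0.72 in males (standard error 0.13, adjusted p = 0.0120). Tnfrsf12a, the receptor of the cytokine TWEAK, had a log2 difference of 0.53 in each sex, not called in females (adjusted p = 0.0762) or males (adjusted p = 0.0512) and called as higher in the average (adjusted p = 0.00271). Acta1, skeletal alpha actin, had log2 differences of 1.19 in females and 0.82 in males (adjusted p = 0.188 and 0.406). The 3 genes named all had higher means, but the list did not go 1 way. Of its 17 genes, 7 had higher and 10 lower means in GPER KO females, and 13 higher and 4 lower in males. The list's median was -0.01 in females and 0.13 in males. Over all these pathway lists, without the 8 genes and the cell type markers listed only as such, 78 genes were measured. Of these 2.56% were called in females (1 higher and 1 lower), 2.56% in males (2 higher) and 3.85% in the average (3 higher). Among all genes the shares called were 0.281% in females, 0.62% in males and 1.36% in the average. The lists were chosen with earlier results of these arrays known, so their shares are a description.

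**Figure D4:**
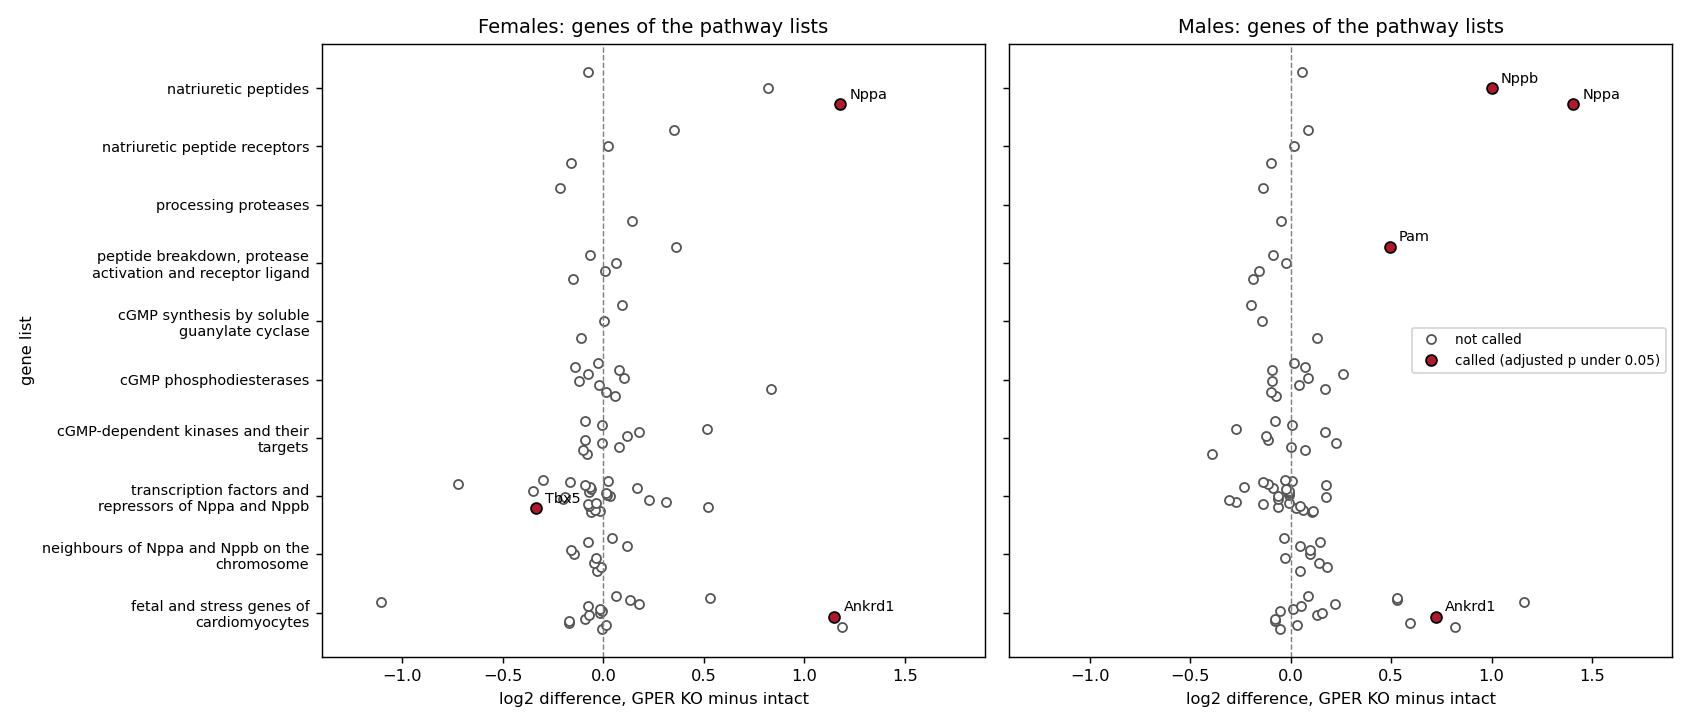
Log2 difference, GPER KO minus intact, of each measured gene of the 8 members and of the pathway lists, in females (left) and males (right), with 1 row per list; filled points are called by limma over all genes. Most points lie near 0, with Nppa and Ankrd1 called in both panels, Tbx5 in females, and Nppb and Pam in males.

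The preparations had the markers of ventricular cardiomyocytes, with Myl2 at 12.88 to 13.02 and Tnnt2 at 12.52 to 12.75 on all arrays, while Myh6 and the atrial gene Sln have no probe set with 1 gene in the annotation used here. Gper1 has 1 probe set, of low signal (percentile 24.3), which differed by -0.08 in females (female adjusted p = 0.748) and 0.01 in males (male adjusted p = 0.983). It is not known here whether it lies in the deleted sequence, so it does not check the genotype labels. Of 17 endothelial markers, all 17 had lower means in GPER KO cells in both sexes and 0 were called by limma (1 in females and 4 in males at an unadjusted p under 0.05, a limit that 12.6% of all genes passed in females and 10.1% in males), with medians of -0.24 in females and -0.37 in males. Of 15 macrophage markers, 14 had higher means in GPER KO females with 0 called (5 at an unadjusted p under 0.05, median 0.31). In GPER KO males 14 had higher means (12 at an unadjusted p under 0.05, median 0.70). Limma called 6 of them in males, where 0.62% of all genes were called, among them Cd68 at 0.70 (adjusted p = 0.0124). In the average all 15 had higher means and 6 were called, where 1.36% of all genes were called. The linear sum of the macrophage markers was 595 to 764 in GPER KO and 430 to 552 in intact females, and 689 to 1266 in GPER KO and 496 to 789 in intact males. In bulk RNA, more cells of a type and more RNA per cell cannot be told apart, and the part of these cells in the Nppa and Nppb differences was not tested.

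Markers of atrial cardiomyocytes were present and varied widely between arrays, which bears on Nppa as an atrial gene. The mean log2 value of the atrial light chains Myl4 and Myl7 was 6.13, 9.06, 7.60 and 6.85 in GPER KO females, against 8.57, 9.40, 9.05 and 7.26 in intact females. It was 10.11, 9.75, 9.28 and 7.91 in GPER KO males, against 9.30, 6.68, 7.62 and 8.36 in intact males. The light chains thus had the lower mean in GPER KO females and the higher mean in GPER KO males, with overlap in both sexes, and the intact females with the higher Nppa (421 and 422) also had the highest light chains of their group. In GPER KO males the 4 mice stood in the same order for Nppa as for the light chains, and intact male 430 had the highest value of its group for both. In GPER KO females the lowest light chains went with the lowest Nppa (417), while the highest light chains (419) did not go with the highest Nppa. Myl4 differed by -1.11 in females (female adjusted p = 0.475) and 1.16 in males (male adjusted p = 0.567), and Myl7 by -1.22 in females and 1.38 in males (adjusted p = 0.503 and 0.548). Of 13 measured atrial markers, 12 had lower means in GPER KO females (1 called, Tbx5) and 8 had higher means in GPER KO males (1 called, Pam). Their linear sum was 1071 to 2276 in GPER KO and 1153 to 2868 in intact females, and 1581 to 3303 in GPER KO and 1048 to 2385 in intact males.

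With the light chain mean of each array added to the fit, an alternative chosen after seeing the data, the Nppa difference was 1.42 in females (standard error 0.22, adjusted p = 0.0162) and 1.14 in males (standard error 0.22, adjusted p = 0.0483). In the average of the sexes it was 1.28 (standard error 0.14, adjusted p = 0.000186). The Nppb difference was 0.77 in females (adjusted p = 0.348), 1.05 in males (adjusted p = 0.0833) and 0.91 in the average (adjusted p = 0.00483). In this fit Nppa was called in each sex and Nppb in neither sex alone, while the Nppa difference was larger in females and smaller in males than without the covariate. The part of atrial cells in these differences cannot be told from it.

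**Figure D5:**
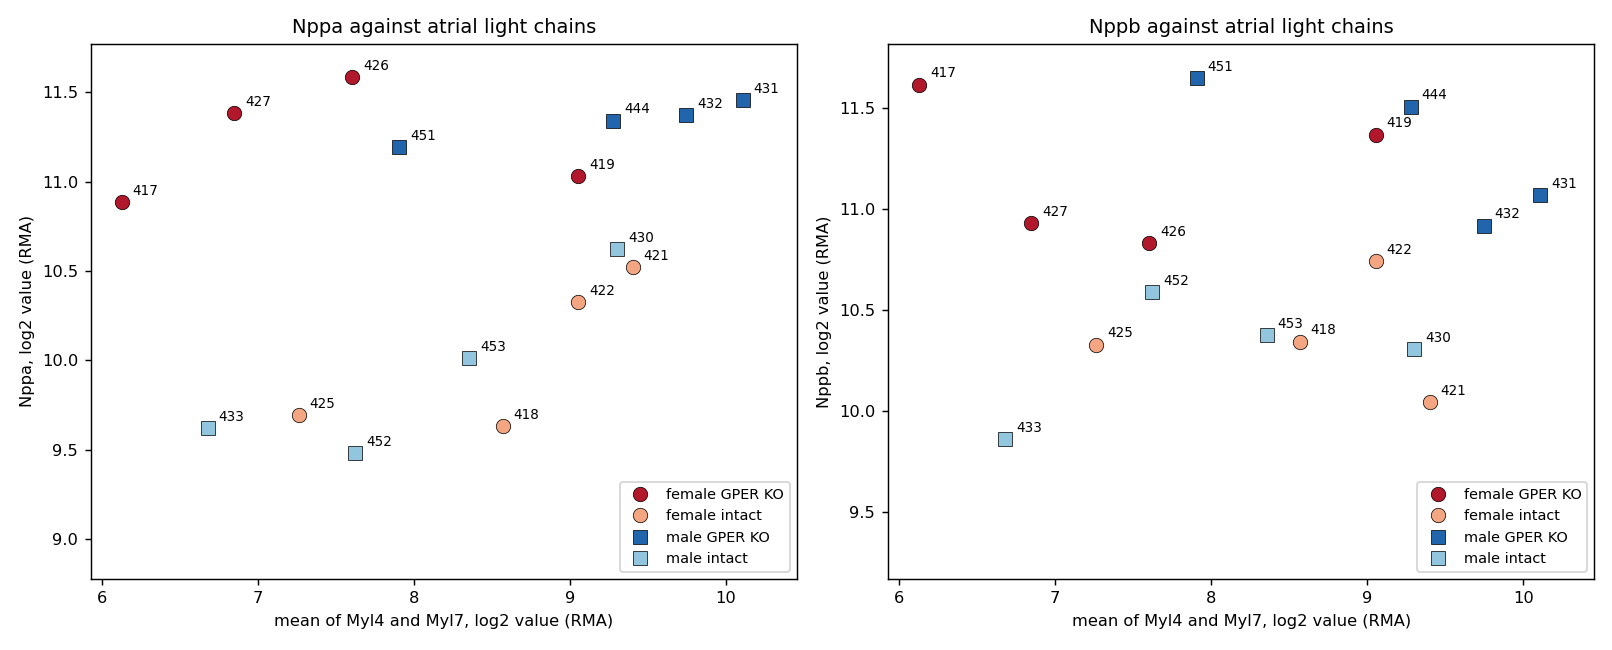
Log2 values (RMA) of Nppa and Nppb against the mean log2 value of the atrial light chains Myl4 and Myl7, with 1 point per array and the animal number beside it. The 8 GPER KO arrays lie above the 8 intact arrays in both panels over a light chain range of 6.13 to 10.11.

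The genes whose profile over the 16 arrays was nearest to that of Nppa, among 12492 genes with a mean above percentile 40 of probe sets, were Ndnf, Timm10, Jpt1, Pam and Atp6v0e2, at distances of 0.471 to 0.514. Ndnf encodes a secreted neurotrophic factor, Timm10 a chaperone of mitochondrial import, and Atp6v0e2 a subunit of the vacuolar proton pump. Nearest to Nppb were Ccn2, Serpinb6b, Ndnf, AW011738 and Phlda3, at distances of 0.446 to 0.566. Ccn2 encodes connective tissue growth factor, a matricellular protein, and its log2 difference was 0.78 in females (female adjusted p = 0.169) and 0.87 in males (male adjusted p = 0.0924). Ndnf alone was in both sets of 5. Nppb was 148th in the list of Nppa, and Nppa was 85th in the list of Nppb. When deviations from the group means were used instead, none of the 5 nearest genes of either peptide was kept.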

How the data were processed

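The authors deposited log2 values per probe set, 1 column for each of 16 arrays; their processing notes name RMA and Partek without versions. RMA as usually run corrects background, normalizes by quantiles and summarizes probes. This compresses large differences and brings the array medians close together, here 3.47 to 3.51. Scanner signals were not used here, and 4 arrays per group limit the precision.

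Of 45141 probe sets, 28898 carry 1 gene in the platform annotation, 551 several and 15692 none. The Entrez identifiers of 28689 of these were in RefSeq's GRCm38.p6 gene table, whose symbols were then used. For tests per gene, the probe set with the highest mean stood for the gene. Limma 3.58.1 in R 4.3.3 (lmFit, contrasts.fit, eBayes) was fitted without a filter to all 16 arrays, with a mean for each of 4 groups and Benjamini-Hochberg adjustment over 17097 genes and a threshold of 0.05. The fit was tested on simulated data. The standard errors are those of the moderated fit, and folds are 2 to the power of the log2 difference. Single probe sets were also compared by exact permutation tests.

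The members and the gene lists were chosen with earlier results of these data known. The text names every probe set of the members, Gper1, and from each list described up to 4 called genes per direction, or the 2 with the smallest unadjusted p-values where none was called (not all are printed). It also names the neighbours of Nppa and Nppb, the 5 nearest genes of each by distance of scaled profiles, and defining cell type markers. Tnfrsf12a and Acta1 in single sexes were named after their values were seen. Promoter windows are 250 bases before the RefSeq start, searched for exact letters.

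Alternatives were averaged probe sets per gene, every probe set with 1 gene, a filter on low values, quantile normalization applied again, centring on array medians, array weights, eBayes with trend and robust settings, 1 sex alone, each array left out, and intact females 421 and 422 left out together, a pair known from an earlier analysis to stand apart. The light chain covariate was chosen after seeing the data.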

Additional observations from a re-analysis of the deposited data

Results flagged for a closer look

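Npr1 in male GPER KO 432 had a log2 value of 3.15, against 3.01 to 3.03 in the other 3 GPER KO males, a gap of 0.853 of the range of the group, past Dixon's critical value for 4 samples. It was the only such value in 40 checks (10 probe sets in 4 groups), where chance flags about 1 in 20, and the signal of Npr1 is low. No difference of the genotype effect between the sexes was called for any of the 8 genes.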

How the results depend on the processing

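The calls of Nppa and Nppb in the average of both sexes, and of Nppa in males, held under every alternative run. The log2 differences over these alternatives were 1.22 to 1.48 for Nppa and 0.84 to 0.97 for Nppb in the average, and 1.14 to 1.64 for Nppa in males. The female Nppa call (1 of the 8 genes, adjusted p = 0.0480) was lost, leaving 0, at an unchanged difference of 1.18, with averaged probe sets per gene (adjusted p = 0.0532), every probe set with 1 gene (0.0628), centring (0.0526), 1 sex alone (0.119) and the trend and robust settings (0.0999). Leaving out 1 array gave 1.04 to 1.34, with 0 to 1 of the 8 genes called. Without intact females 421 and 422 the female Nppa difference was 1.56 (adjusted p = 0.0348). The male Nppb call was lost, leaving 1 of 8 genes called in males, with 1 sex alone (1.0, adjusted p = 0.0639), with the trend and robust settings (1.0, adjusted p = 0.0721) and with the light chain covariate (1.05, adjusted p = 0.0833). Leaving out 1 array gave 0.86 to 1.12, with 1 to 2 genes called.

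Counts over all genes moved more. In females the 48 calls became 13 with 1 sex alone, 10 without intact females 421 and 422, 17 with the light chain covariate and 20 (without intact female 421) to 159 (without intact female 425) with 1 array left out. In males the 106 calls became 181 with array weights, 66 with 1 sex alone, 39 with the covariate and 53 (without intact male 430) to 120 (without intact female 422) with 1 array left out. Between intact males and females the 99 calls became 43 with the mean of probe sets, 50 with centring, 46 with array weights, 7 without 421 and 422, 28 with the covariate and 13 to 375 with 1 array left out, where 0 to 1 of the 8 genes was called. The cause of these moves was not tested. Directions turned only for differences that were not called. For the sex difference of the genotype effect (male minus female), Nppa was -0.15 without 421 and 422 and -0.28 with the covariate, Furin -0.066 without 421 and 422, and Npr2 0.014 with the covariate. For intact males minus intact females, Nppa was 0.27 without 421 and 422 and 0.013 with the covariate, Furin 0.10 without 421 and 422, and Npr2 -0.019 after quantile normalization. With 1 array left out, Npr2 ran from -0.069 to 0.077 in females, -0.040 to 0.085 in males, -0.027 to 0.055 in the average, -0.065 to 0.085 for the sex difference of the effect and -0.070 to 0.077 between intact males and females. Nppc ran from -0.029 to 0.0076 in the average, and Npr1 from -0.023 to 0.16 for the sex difference of the effect. Between intact males and females Furin ran from -0.11 to 0.032, Nppa from -0.34 to 0.050 and Nppb from -0.19 to 0.059.

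No paired analysis was possible because the animal numbers are unique to each mouse. Scaling moved the median difference of all genes by less than 0.01 on the log2 scale. Low signals limit what can be seen of Nppc, Npr1 and Npr3.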
